A study of Mus musculus with 79 samples.

Results

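H3K4me3 was compared between the hypothalamus of Δ/D329A and +/+ mice over the whole autosomal genome. The comparison rests on 6 ChIP-seq libraries, 3 of each genotype, of the 79 samples of the series. These are all the adult hypothalamus libraries made with the H3K4me3 antibody in these 2 genotypes. Each precipitation used 2.5% of the hypothalamus of a mouse aged about 14 weeks, whose native chromatin had been digested with micrococcal nuclease. The Δ/D329A mice carry, on the maternal chromosome, a Dnmt3a allele from which an exon was removed in the oocyte by a Zp3-driven Cre. On the paternal chromosome they carry the D329A allele, a point mutation in the PWWP domain of the DNA methyltransferase DNMT3A, which is then the only functional form of the protein. The +/+ mice carry 2 unmodified alleles. By the study's methods, the replicates are individual animals, and the tissue of each animal was also used for H3K27me3, H3K36me3 and input. In tissue of mixed cell types, a fall of a mark in every cell and a loss of the cells that carry it cannot be told apart.

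Trimethylation of lysine 4 on histone H3 marks the start of most active genes and of many silent genes whose promoters are rich in CpG dinucleotides. It is placed by SET1 and MLL complexes, which bind unmethylated CpG DNA through CXXC-type zinc fingers. At developmental genes it often lies beside H3K27me3, the mark of Polycomb repression, an arrangement called bivalent. DNMT3A reads the H3 tail with its ADD domain, which does not bind when lysine 4 is trimethylated, and the PWWP domain recognises methylated lysine 36.

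Signal was read per tile as RPM, reads in a 2 kb tile scaled to the library's uniquely mapped reads. A promoter was called if limma gave a Benjamini-Hochberg adjusted p under 0.05 on log2(RPM + 0.1). With the RPM as deposited, 237 of 14813 promoters (1.6%) were called, of which 45 were higher in Δ/D329A (0.304%) and 192 were lower (1.3%). The median of all promoters tested was -0.09 on this scale. These promoters had a mean of at least 1 RPM, and leaving out 1 library gave 112 to 585 calls. With no minimum, 0 of 24483 promoters were called (limma, 825 at an unadjusted p under 0.05). Replicate 1 of Δ/D329A had the highest background, with 0.376 RPM in its median autosomal tile, against 0.129 to 0.200 RPM in the other 5 libraries. Under TMM scaling the median was 0.00, and 12 promoters were called higher and 33 lower. In the limma fit on the deposited RPM the variance of each promoter was replaced by the trend over all promoters, since the estimated prior degrees of freedom were infinite, so that a promoter with scattered replicates could be called. Under TMM the prior degrees of freedom were 5.31. The account therefore leads with the promoters that passed under each of 5 scalings, a set defined after the data had been seen. The 5 were deposited RPM, TMM, quantile normalization, background subtraction and edgeR on the recovered reads. The edgeR fit also used TMM factors, so it added another test and not a separate scaling. Under all 5, 11 promoters were higher in Δ/D329A (0.0743% of those tested) and 18 were lower (0.122%). In all 29, the 3 values of one genotype lay outside the range of the other, as was the case, higher in Δ/D329A, for 0.635% and, lower, for 5.39% of all promoters tested. All 29 were also called without replicate 1 of Δ/D329A on the deposited RPM, and fewer were with another scaling added, 9 of the 11 and 16 of the 18 with TMM, and 10 and 14 with edgeR. With TMM and a term for 2 sets of libraries that differ in mitochondrial coverage, 11 and 14 were called. With the ratio to input, fewer were called, 4 of the 11 (Pou4f1, Gata6, Skor1 and Hoxa4) and 9 of the 18, and Frzb, Bdnf, Ccnd1, Myb, Hoxa7, Onecut1 and Onecut2 were not among them. Without that replicate, 89 promoters were called higher and 225 lower on the deposited RPM.

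**Figure D1:**
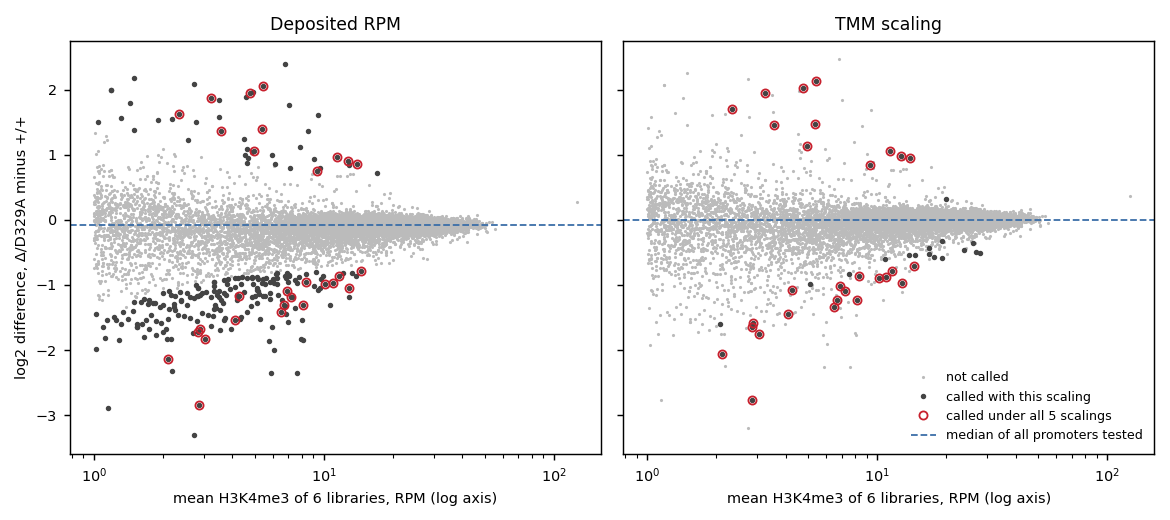
Log2 difference of H3K4me3 (Δ/D329A minus +/+) against the mean RPM of the 6 libraries for the 14813 promoters tested, with the deposited RPM (left) and after TMM scaling (right). Grey points were not called, dark points were called with that scaling, red circles mark the 29 called under all 5 scalings, and the dashed line is the median of all promoters, -0.09 on the left and 0.00 on the right.

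The promoters that gained H3K4me3 included several of transcription factors. Pou4f1, a POU-domain factor of sensory and habenular neurons, held 2.15, 1.93 and 1.94 RPM in +/+ and 8.22, 6.71 and 11.59 RPM in Δ/D329A. All 3 Δ/D329A libraries lay well above the +/+ libraries, and the rise was 2.05 on the log2 scale (SE 0.26, adjusted p = 2.41e-12, limma; 2.14 and adjusted p = 0.00993 with TMM). Gata6, a zinc-finger factor of endoderm and heart, held 2.78, 1.93 and 1.22 RPM in +/+ and 6.40, 8.52 and 7.75 RPM in Δ/D329A. The genotypes were again separate, with a log2 difference of 1.95 (SE 0.26, adjusted p = 1.73e-10, limma; 0.0238 with TMM). With TMM without replicate 1 of Δ/D329A, Gata6 (adjusted p = 0.0525, limma) and the Vax2os1 start (0.0638) were not called. Skor1, a corepressor of the SKI family, rose from 1.36, 0.93 and 1.67 RPM to 3.29, 6.0 and 6.20 RPM. The start of Vax2os1, which lies with those of Vax2 and Vax2os2 in the same 3000 bp, rose from 1.04, 0.83 and 1.45 RPM to 2.98, 3.67 and 4.03 RPM. Vax2 is a homeobox gene of the ventral eye, and tiles of this width cannot assign the signal to 1 of the 3 genes. The same holds for 1700039E22Rik, an antisense transcript inside the paired-box gene Pax2, where H3K4me3 rose from a mean of 2.90 RPM (SD 0.64, n = 3) to 7.85 RPM (SD 2.13, n = 3).

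The Hox genes, which set position along the body axis, contributed Hoxa4 and Hoxa7 from the HoxA cluster. Hoxa4 held 1.87, 1.80 and 2.20 RPM in +/+ and 4.92, 5.09 and 5.55 RPM in Δ/D329A. Hoxa7 held 3.19, 3.13 and 3.22 RPM against 5.83, 7.14 and 7.26 RPM. The genotypes did not overlap at either, and the rises were 1.37 and 1.05 on the log2 scale. The cut-homeobox genes Onecut1 and Onecut2 already had more H3K4me3 in +/+. Onecut1 went from 7.18, 7.35 and 8.24 RPM to 11.41, 16.17 and 18.10 RPM, a 2.01-fold rise of the mean. Onecut2 went from 9.55, 10.08 and 9.59 RPM to 13.67, 20.71 and 19.98 RPM, a 1.86-fold rise. Eps8l1, a relative of the actin regulator EPS8, was the exception in kind, with a rise from 6.74, 6.42 and 7.46 RPM to 9.28, 12.54 and 13.49 RPM. It was the only promoter of the 11 below 0.5 RPM of H3K27me3 in every library.

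Of the 18 promoters that lost H3K4me3, the deepest fall was at Gm14261, whose start lies beside that of Sall4, a zinc-finger factor of stem cells. There the +/+ libraries held 5.31, 5.52 and 4.24 RPM and the Δ/D329A libraries 0.60, 1.22 and 0.29 RPM. The genotypes were separate, and the log2 difference was -2.84 (SE 0.33). Gm14261 and Cdc20b had a mean below the 1 RPM minimum in Δ/D329A and entered only through +/+, which fixed their direction, so their falls are a description. A pair of starts on chromosome 13 also lost most of the mark. At Cdc20b, 3.19, 3.92 and 3.35 RPM fell to 0.91, 0.55 and 0.71 RPM. At Gm6320, 4.65, 5.49 and 4.34 RPM fell to 1.10, 1.26 and 1.48 RPM. The GENCODE annotation gives the only transcript start in this region to Mcidas, a regulator of multiciliated cells, and lists no Gm6320 there. The region at Cdc20b holds the microRNA gene Mir449c as well.

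Frzb, a secreted inhibitor of Wnt ligands, had narrow replicates in both genotypes, 11.89, 11.44 and 11.50 RPM in +/+ and 3.92, 5.56 and 4.52 RPM in Δ/D329A. The genotypes were far apart, a 2.49-fold fall of the mean (log2 difference -1.31, SE 0.23, adjusted p = 2.93e-06, limma; 0.00437 with TMM). With the ratio to input the difference was -0.80 and was not called (adjusted p = 0.463, limma), and input had a mean of 0.863 RPM in +/+ and 0.566 RPM in Δ/D329A. Bdnf, a neurotrophin that restrains feeding, fell from 12.11, 16.23 and 15.04 RPM to 5.71, 9.94 and 6.81 RPM. The genotypes did not overlap, and the log2 difference was -0.97 (SE 0.21, adjusted p = 0.000939, limma; 0.0398 with TMM). Bdnf was not called with TMM and the mitochondrial set term (adjusted p = 0.0575, limma) or with TMM without replicate 1 of Δ/D329A (0.0836). Nor was it called with the ratio to input (-0.84, adjusted p = 0.337, limma) or with edgeR without that replicate (adjusted p = 0.0865). The D-type cyclins, which drive entry into the cell cycle, had less of the mark at 2 genes. Ccnd2 fell from 19.67, 15.06 and 16.78 RPM to 6.08, 11.32 and 7.94 RPM, and Ccnd1 from a mean of 10.9 RPM (SD 1.30, n = 3) to 5.75 RPM (SD 1.89, n = 3). Ccnd1 was not called in the same fits as Bdnf, with adjusted p of 0.0574, 0.0778 and 0.0603 (limma) and 0.0845 (edgeR) in the same order. Myb, a factor of blood progenitors, fell from 12.40, 14.17 and 13.63 RPM to 4.89, 8.16 and 7.55 RPM. Slc9a3, a sodium/proton exchanger, fell from 9.83, 9.78 and 8.77 RPM to 3.01, 3.79 and 3.68 RPM. At each of these the lowest +/+ value was above the highest Δ/D329A value. Nxph4, a neurexophilin, fell from 6.32, 6.58 and 5.55 RPM to 2.01, 1.89 and 2.26 RPM. Ch25h, a cholesterol hydroxylase, fell from 14.01, 15.56 and 15.34 RPM to 7.49, 9.82 and 7.39 RPM. Mme, the peptidase neprilysin, fell from 17.11, 18.09 and 19.21 RPM to 6.87, 13.29 and 12.39 RPM. Further members were Trim15, Lix1, Gm10775, Il20ra and Car3, with log2 differences between -1.72 at Trim15 and -1.10 at Car3.

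**Figure D2:**
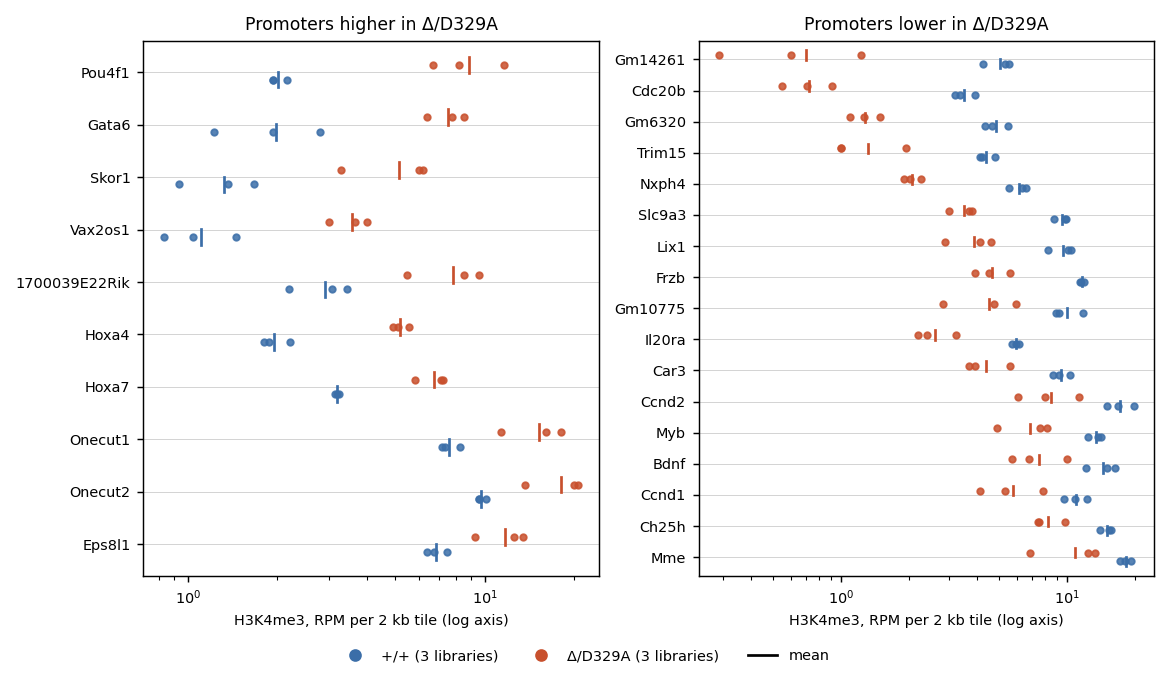
H3K4me3 in RPM per 2 kb tile (log axis) at the reported promoters higher (left) and lower (right) in Δ/D329A under all 5 scalings, ordered by log2 difference. Points are the 3 libraries of each genotype and bars their means, and in each row the blue and red points do not overlap.

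The DNA around these starts differs in CpG content. For 9164 of the 14813 promoters (61.9%), RefSeq (GRCm38.p6) gave the 250 bases before and 50 after the start, with a median of 21 CpG. The windows of 6 promoters named above are printed, 5′ to 3′ on the strand of the gene with each CG in capitals, to show which kinds of sequence gained and which lost the mark. The first 3 gained H3K4me3 and hold 57, 46 and 14 CpG. They are Pou4f1 (chr14:104467950-104468249, minus strand), Skor1 (chr9:63148912-63149211, minus strand) and Eps8l1 (chr7:4460447-4460746, plus strand).
Pou4f1: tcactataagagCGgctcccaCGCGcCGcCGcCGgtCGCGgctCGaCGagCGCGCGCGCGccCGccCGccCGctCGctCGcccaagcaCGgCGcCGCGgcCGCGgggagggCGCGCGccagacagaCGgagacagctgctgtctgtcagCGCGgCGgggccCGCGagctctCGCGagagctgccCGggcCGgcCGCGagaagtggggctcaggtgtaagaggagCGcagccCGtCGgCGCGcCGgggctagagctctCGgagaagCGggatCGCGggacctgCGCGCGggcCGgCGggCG
Skor1: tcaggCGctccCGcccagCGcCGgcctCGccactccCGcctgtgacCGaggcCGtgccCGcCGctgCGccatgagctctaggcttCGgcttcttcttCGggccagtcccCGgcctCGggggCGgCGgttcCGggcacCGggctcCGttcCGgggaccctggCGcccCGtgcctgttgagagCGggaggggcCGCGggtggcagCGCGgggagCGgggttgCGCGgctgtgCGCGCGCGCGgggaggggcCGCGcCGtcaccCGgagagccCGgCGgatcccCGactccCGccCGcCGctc
Eps8l1: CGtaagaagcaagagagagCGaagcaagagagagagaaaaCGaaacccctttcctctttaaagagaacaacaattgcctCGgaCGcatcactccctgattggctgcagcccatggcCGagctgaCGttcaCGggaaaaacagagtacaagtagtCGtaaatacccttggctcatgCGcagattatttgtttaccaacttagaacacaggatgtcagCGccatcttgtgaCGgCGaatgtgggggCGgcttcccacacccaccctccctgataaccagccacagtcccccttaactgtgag
The next 3 lost H3K4me3 and hold 20, 11 and 27 CpG. They are Frzb (chr2:80447347-80447646, minus strand, 229 bp from the start used for the tiles), Bdnf (chr2:109674450-109674749, plus strand) and Gm14261 (chr2:168765893-168766192, plus strand).
Frzb: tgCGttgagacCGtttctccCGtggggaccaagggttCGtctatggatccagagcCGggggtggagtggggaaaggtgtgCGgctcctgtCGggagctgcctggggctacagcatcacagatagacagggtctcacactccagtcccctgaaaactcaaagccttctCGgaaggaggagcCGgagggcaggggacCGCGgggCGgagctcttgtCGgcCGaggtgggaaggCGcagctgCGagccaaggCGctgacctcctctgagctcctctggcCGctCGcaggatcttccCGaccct
Bdnf: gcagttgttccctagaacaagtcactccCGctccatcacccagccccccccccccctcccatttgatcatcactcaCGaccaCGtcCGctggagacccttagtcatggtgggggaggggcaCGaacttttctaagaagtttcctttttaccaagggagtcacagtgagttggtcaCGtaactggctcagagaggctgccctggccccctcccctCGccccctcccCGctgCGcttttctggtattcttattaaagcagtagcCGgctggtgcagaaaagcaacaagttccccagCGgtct
Gm14261: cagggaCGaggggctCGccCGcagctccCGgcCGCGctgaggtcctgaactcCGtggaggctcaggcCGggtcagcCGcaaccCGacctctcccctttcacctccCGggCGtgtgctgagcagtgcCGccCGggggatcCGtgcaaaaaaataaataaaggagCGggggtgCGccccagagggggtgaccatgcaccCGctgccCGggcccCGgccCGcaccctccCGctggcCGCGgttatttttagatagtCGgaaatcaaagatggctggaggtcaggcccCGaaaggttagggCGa
Of the 9164 windows, 0.306% held at least as many CpG as that of Pou4f1 and 3.34% as many as that of Skor1. The shares were 76.4% for Eps8l1, 56.7% for Frzb, 83.7% for Bdnf and 32.5% for Gm14261. High and low counts occurred in both directions, since Myb, which lost the mark, holds 40 CpG. Fewer than 80% of the promoters had a window, so CpG content was not compared between the sets.

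Without regard to annotated starts, the mark was followed in 23552 regions, runs of neighbouring tiles with a mean of at least 2 RPM (median length 4000 bp). Of these 12166 lay at promoters, 6686 in gene bodies and 4700 between genes. With the deposited RPM, 526 regions were called (2.23%), 73 higher (0.31%) and 453 lower (1.92%), and with TMM 23 were higher and 57 lower. The share of calls that were higher thus moved from 13.9% to 28.8%. On the deposited RPM, leaving out 1 library gave 213 to 1206 calls. Under all 5 scalings 19 regions were higher (0.0807%) and 28 lower (0.119%). Of the 19, 9 lay at promoters, 7 in gene bodies and 3 between genes, and of the 28 the numbers were 14, 8 and 6. Without replicate 1 of Δ/D329A all 47 were called on the deposited RPM, and with TMM 16 of the 19 and 26 of the 28. With edgeR without that replicate only 5 of the 19 and 10 of the 28 were called, among 28 calls in all. With the ratio to input 13 of the 19 and 27 of the 28 were called. These included the regions at the starts of Frzb, Myb and Hoxa7, with adjusted p of 0.0183, 0.0245 and 0.0294 (limma). The promoter windows of these genes were not called with that ratio. A region entered on the mean of all 6 libraries, so that 8 of the 19, with a +/+ mean below 2 RPM, entered only through Δ/D329A, and 9 of the 28 only through +/+. The direction of these 17 was fixed by the minimum, and their differences are descriptions. In each of the 47 the genotypes did not overlap, which held, higher, for 1.09% and, lower, for 8.37% of all regions. In input, which shows chromatin recovery without an antibody, the median of the 19 regions was 0.735 RPM in +/+ and 0.831 RPM in Δ/D329A, and that of the 28 was 0.781 and 0.835 RPM. Single tiles gave 1066 calls among 137960 tested (0.773%), 129 higher and 937 lower, with TMM 54 and 109, and 105 under all 5 scalings (0.0761%).

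The largest log2 difference among these 47 regions was inside Wt1, a zinc-finger factor of kidney and gonad. A region of 3000 bp (chr2:105133001-105136000, GRCm38) held 0.09, 0.07 and 0.30 RPM in +/+, or about 2, 1 and 4 reads per tile, and 5.39, 2.41 and 6.42 RPM in Δ/D329A. The mark was close to absent in every +/+ library and present in every Δ/D329A library, and the log2 difference was 4.26 (SE 0.41). The region entered only through Δ/D329A, so this is a description, and it was not called with edgeR without replicate 1 of Δ/D329A (adjusted p = 0.0693). The tile with the most signal was centred 8472 bp past the Wt1 start. No GENCODE transcript starts in this region, of which 609 bp are exonic. At the Wt1 start itself, H3K4me3 was below the 1 RPM minimum in both genotypes, with 0.57, 0.73 and 0.26 RPM in +/+ and 0.53, 0.16 and 0.13 RPM in Δ/D329A.

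Tal1, a bHLH factor of blood and of some midbrain and spinal neurons, also gained the mark inside the gene and not at its start. Unlike Wt1, it already carried the mark at both places in +/+. The tile centred 6575 bp past the start held 8.03, 5.72 and 5.32 RPM in +/+ and 20.07, 17.28 and 23.43 RPM in Δ/D329A. A region of 5000 bp in its gene body (chr4:115061001-115066000) rose from 4.47, 3.24 and 3.01 RPM to 12.54, 9.96 and 14.07 RPM, a log2 difference of 1.75 (SE 0.25, adjusted p = 3.54e-09, limma; 0.0191 with TMM; 0.0704 with edgeR without replicate 1 of Δ/D329A). The genotypes were separate there. In the tile centred 1575 bp past the start they were not, with 8.66, 7.72 and 5.58 RPM in +/+ and 6.84, 7.97 and 4.20 RPM in Δ/D329A, and the promoter was not called (adjusted p = 1, limma). To show the DNA under these internal gains, the middle 300 bases of both regions are given on the plus strand of GRCm38.p6, with each CG in capitals. That of Wt1 (chr2:105134351-105134650) is intronic and holds 17 CpG, and that of Tal1 (chr4:115063351-115063650) holds 31 CpG and 226 bases of coding exon.
Wt1: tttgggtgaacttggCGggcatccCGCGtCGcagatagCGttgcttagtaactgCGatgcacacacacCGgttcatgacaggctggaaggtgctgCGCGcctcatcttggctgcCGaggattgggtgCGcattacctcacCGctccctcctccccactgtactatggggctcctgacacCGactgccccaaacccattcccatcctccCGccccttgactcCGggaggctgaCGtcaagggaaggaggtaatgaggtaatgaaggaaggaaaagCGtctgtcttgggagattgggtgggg
Tal1: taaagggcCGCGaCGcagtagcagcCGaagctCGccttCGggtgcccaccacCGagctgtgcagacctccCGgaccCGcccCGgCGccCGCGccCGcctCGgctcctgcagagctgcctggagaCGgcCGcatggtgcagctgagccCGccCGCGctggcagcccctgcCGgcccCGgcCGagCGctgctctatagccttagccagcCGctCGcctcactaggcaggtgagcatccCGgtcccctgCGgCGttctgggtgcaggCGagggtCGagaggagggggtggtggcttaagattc

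**Figure D3:**
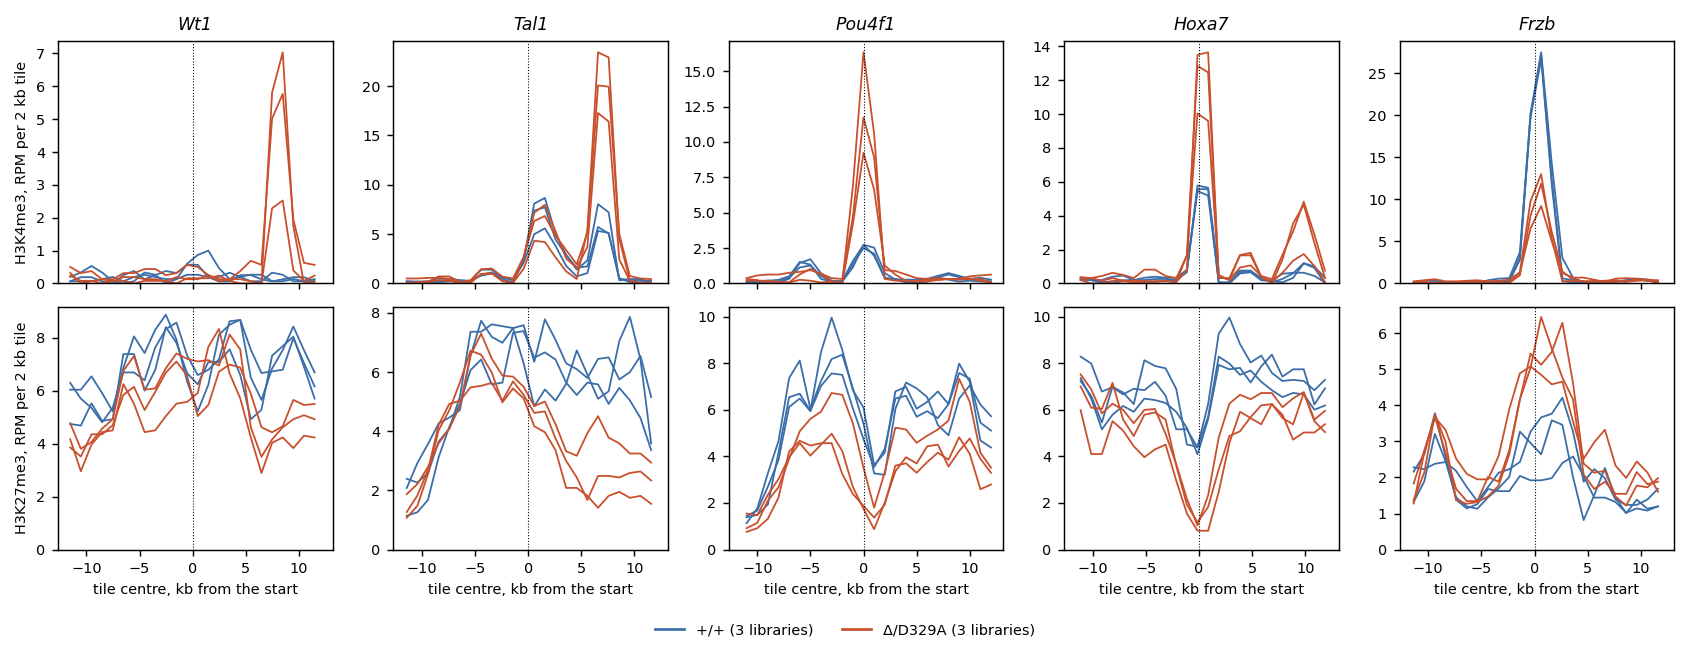
H3K4me3 (top) and H3K27me3 (bottom) in RPM per 2 kb tile within 12 kb of the start of Wt1, Tal1, Pou4f1, Hoxa7 and Frzb, by the distance of the tile centre from the start in the direction of transcription. Each line is a library. The Δ/D329A lines rise above all +/+ lines past the start of Wt1 and Tal1 and at the start of Pou4f1 and Hoxa7, and lie below them at Frzb, where H3K27me3 is higher.

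The other gene-body regions that rose were at Cdk5rap1, Hoxa5, Hoxc6, Nr2e1 and Tfap2a. At Cdk5rap1 (chr2:154353001-154356000), a gene of mitochondrial tRNA modification, 0.79, 0.90 and 0.33 RPM became 4.01, 6.31 and 6.29 RPM, an 8.24-fold rise of the mean. Like those at Hoxa5 and Nr2e1, it entered only through Δ/D329A. This region carried at most 0.13 RPM of H3K27me3 in any library, unlike the others, and a Cdk5rap1 transcript starts in it. The region at the Hoxa5 start rose from 1.08, 0.80 and 0.79 RPM to 3.20, 4.18 and 2.78 RPM, and that at the Hoxc6 start from 2.47, 2.03 and 2.23 RPM to 5.58, 6.47 and 5.97 RPM. Nr2e1, an orphan nuclear receptor of neural stem cells, rose 9632 bp past its start from 1.58, 1.70 and 2.20 RPM to 2.98, 6.11 and 5.03 RPM. At its promoter the Δ/D329A mean was lower, as given with the expressed genes. Tfap2a, an AP-2 factor of neural crest, rose from 4.89, 4.72 and 5.25 RPM to 9.11, 9.94 and 11.70 RPM. Between genes, the 3 rises lay 6464 bp from the Gsx2 start, 8559 bp from that of Osr1 and 11071 bp from that of Tbr1, which encode homeobox, zinc-finger and T-box factors, and the last touches the Tbr1 gene. The region near Gsx2 rose most, from 2.43, 1.63 and 2.50 RPM to 5.08, 10.77 and 8.20 RPM. Near Tbr1, input was also higher, with 0.48, 0.67 and 0.46 RPM in +/+ and 0.88, 0.71 and 0.74 RPM in Δ/D329A, which do not overlap. With the ratio to input the Tbr1 difference went from 1.11 to 0.64 (adjusted p = 0.598, limma), and those inside Nr2e1 (0.347), Tfap2a (0.0648) and Hoxc6 (0.059) were not called either.

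Of the 14 regions classed outside promoters that fell, 8 lay in gene bodies and 6 between genes. A GENCODE transcript nevertheless starts in 5 of the 8 and in 2 of the 6. The deepest fall among the 14 was in Espn, which encodes an actin-bundling protein. There 6.66, 10.20 and 9.70 RPM became 1.63, 1.18 and 1.33 RPM, a 6.40-fold fall of the mean (log2 difference -2.58, SE 0.28), in a region that entered only through +/+. Next by log2 difference (-1.97), though not by fold of means, was a region shared by the 3′ part of Grn, the progranulin gene, and the start of Fam171a2. It fell from 11.26, 10.55 and 13.01 RPM to 1.97, 4.23 and 2.84 RPM. The other gene-body falls were in Has1, Mex3a, Sobp, Tchh, Tmem208 with Fhod1, and 2700081O15Rik with Rtn3. Of these 8 regions, 1 had at least 2 RPM of H3K27me3 in +/+, against 12 of the 14 promoter regions that fell. Of all 23552 regions, 2328 had this level, and the difference between the classes was not tested. The longest intergenic fall, over 7000 bp, lay at the non-coding gene Rmst, where 8.91, 14.11 and 10.31 RPM became 2.65, 4.75 and 2.69 RPM. This region was not called with TMM without replicate 1 of Δ/D329A (adjusted p = 0.052, limma) or with TMM and the mitochondrial set term (0.0597). With edgeR without that replicate it was not called either (adjusted p = 0.114).

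**Figure D4:**
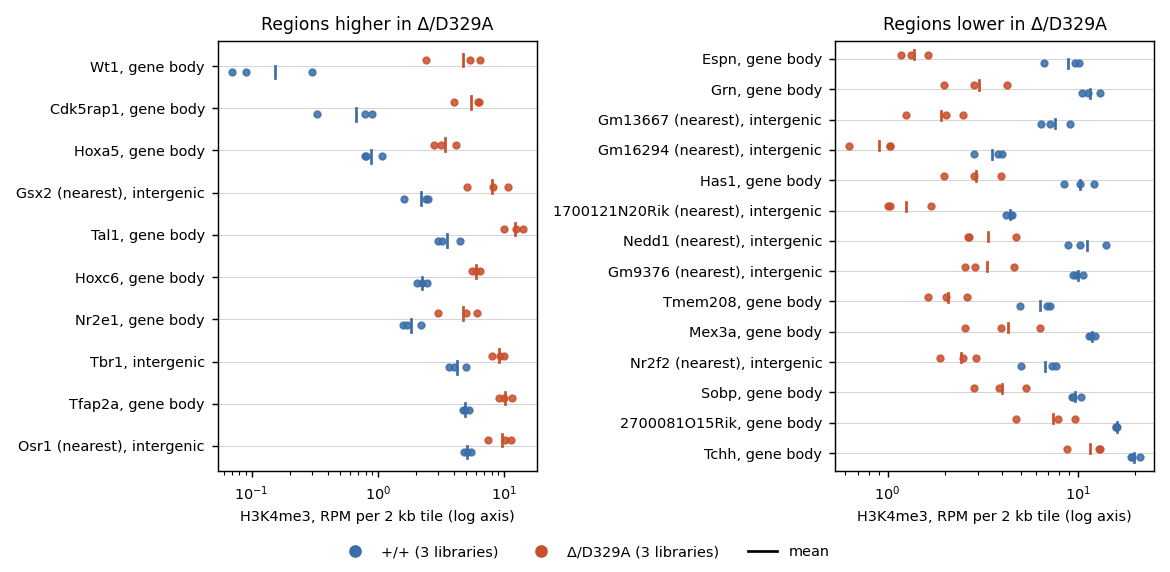
H3K4me3 in RPM per 2 kb tile (log axis) in the 24 regions classed outside promoters and called under all 5 scalings, 10 higher (left) and 14 lower (right) in Δ/D329A, named by a gene they overlap or by the nearest start. A GENCODE transcript starts in 4 of the 7 gene-body and 0 of the 3 intergenic regions that rose. Among those that fell, this held for 5 of 8 and 2 of 6. Points are libraries and bars means, and the Wt1 region is the only one with +/+ values below 0.5 RPM in all 3 libraries.

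The promoters called for H3K4me3 were unevenly spread over the levels of H3K27me3 in +/+. Of 9833 promoters with under 0.5 RPM of H3K27me3, 4 were called higher and 5 lower with the deposited RPM. Of 522 with at least 4 RPM, 33 were higher (6.32%) and 81 lower (15.5%). In the group from 2 to 4 RPM the calls were nearly all falls, 2 higher and 78 lower of 1135. Of the 29 promoters called under all 5 scalings, 10 of the 11 that rose came from the group with at least 4 RPM, and 12 of the 18 that fell from that with 2 to 4 RPM. After TMM scaling the median log2 difference was 0.01 below 0.5 RPM, -0.02 from 0.5 to 2, -0.19 from 2 to 4 and -0.23 at 4 RPM or more. By the mean level of H3K4me3, 27 were higher and 120 lower of 2149 promoters between 1 and 5 RPM, 17 and 72 of 4354 between 5 and 15 RPM, and 1 and 0 of 6624 between 15 and 30 RPM. Of the 29, 12 lay between 1 and 5 RPM and 17 between 5 and 15 RPM. Promoters rich in H3K27me3 had less H3K4me3, with a median of 3.56 RPM at 4 RPM of H3K27me3 or more against 20.2 RPM below 0.5.

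H3K27me3 was measured in separate precipitations from the same animals. Over all promoters it gave 168 higher (1.33%) and 46 lower (0.363%) of 12659 tested with limma. Leaving out 1 library gave 69 to 465 calls, and without the minimum of 0.5 RPM there were 4. Of the 11 promoters that gained H3K4me3, 10 were tested for H3K27me3, and it fell at 5, Onecut1, Onecut2, Hoxa4, Hoxa7 and Pou4f1. At Hoxa7 it went from 4.66, 4.77 and 4.46 RPM to 1.18, 1.60 and 1.55 RPM (adjusted p = 1.16e-05, limma). At Pou4f1 it went from 6.17, 5.40 and 6.47 RPM to 2.22, 4.47 and 2.13 RPM (adjusted p = 0.00224, limma). The other 5 differences were below 0 without being called, and Gata6 kept 5.92, 5.63 and 6.80 RPM against 5.98, 6.03 and 6.72 RPM in +/+. Of the 18 that lost H3K4me3, H3K27me3 rose at 3, Frzb, Myb and Ch25h, and 16 differences were above 0, as were 61.5% of those over all promoters tested. At Frzb it went from 3.11, 1.98 and 2.85 RPM to 4.61, 4.99 and 4.80 RPM (adjusted p = 0.00528, limma). Among all tested promoters with H3K27me3 values, 3.19% were called higher and 0.732% lower. In the region inside Wt1, H3K27me3 went from 6.76, 7.51 and 7.19 RPM to 4.13, 4.55 and 4.39 RPM, with no overlap, and 14 of the 19 regions that gained H3K4me3 had every Δ/D329A value of H3K27me3 below every +/+ value. This held for 8.46% of all regions and for 12.5% of the 2328 with at least 2 RPM of H3K27me3 in +/+. With limma at an adjusted p under 0.05, 0 of 5598 promoters were called for H3K36me3 (0.0%; 404 at an unadjusted p under 0.05) and 0 of 23513 for input (0.0%; 1216).

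**Figure D5:**
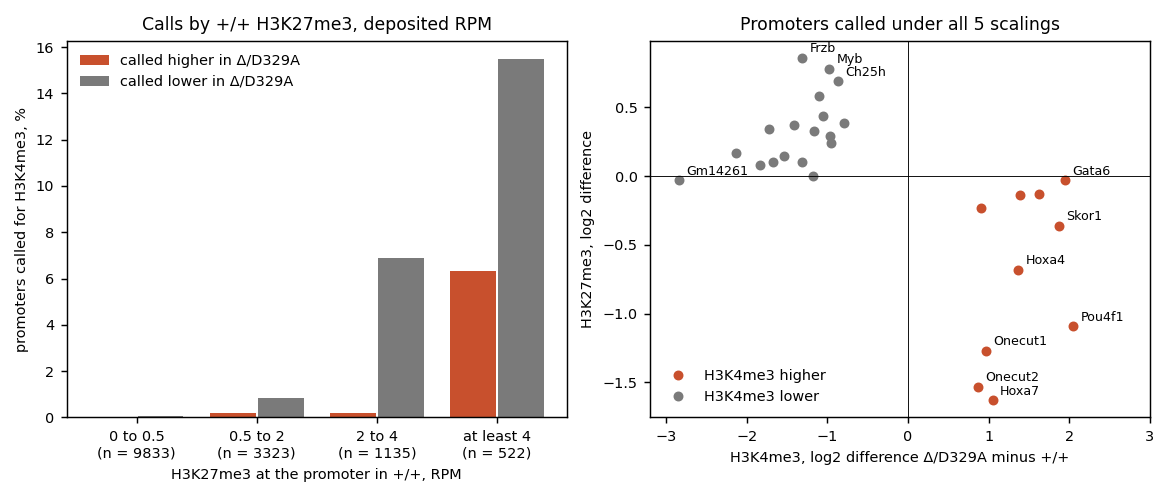
Left, the percentage of promoters called higher or lower for H3K4me3 with the deposited RPM, by H3K27me3 in +/+. Right, log2 differences of H3K27me3 against those of H3K4me3 for the 28 promoters of the 29 tested for both marks. The H3K27me3 difference is below 0 at all 10 promoters that gained H3K4me3 and above 0 at 16 of the 18 that lost it.

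The RNA came from other mice, of the other sex. Xist was at 13.9 RPKM or more in all 9 RNA libraries and the Y-linked Ddx3y at 0.0184 RPKM or less, whereas every input library had Y coverage, 0.0461 to 0.0488 of the autosomal level. Sex and assay cannot be told apart when the readouts are set side by side. RNA-seq of 5 +/+ and 4 Δ/D329A hypothalami called 15 genes higher (0.0841%) and 4 lower (0.0224%) of 17839 with limma at an adjusted p under 0.01. The study, with DESeq at the same threshold, reported many more genes, with Bdnf among the lower ones. A gene not called here is therefore not shown to be unchanged. Leaving out 1 library gave 11 to 17 higher and 0 to 4 lower. A gene entered with at least 0.1 RPKM in 4 libraries, so that 7 of the 15, below this in every +/+ library, entered only through the 4 Δ/D329A libraries. The direction of these 7, which include Hoxa4, Hoxa6, Hoxa7, Lhx4, Pou4f1 and Wt1, was fixed by the minimum, and their RNA is given as a description. Of the 11 promoters that gained H3K4me3, 7 had a transcript that could be tested and 3 of these were called higher, Hoxa4, Hoxa7 and Pou4f1, all among the 7. Pou4f1 RNA ranged from 0.0122 to 0.0738 RPKM in +/+ and from 0.638 to 1.14 RPKM in Δ/D329A. Hoxa7 ranged from 0.0170 to 0.0234 RPKM and from 0.297 to 0.889 RPKM, and all 5 +/+ values were at the level that the table lists for a gene with no read. Both stayed near 1 RPKM or below. Wt1 RNA ranged from 0.00790 to 0.0208 RPKM in +/+ and from 0.449 to 0.696 RPKM in Δ/D329A, and 4 of the +/+ values were at the level for no read. Tal1 RNA had a mean of 0.193 RPKM in +/+ (SD 0.149, n = 5) and 1.48 RPKM in Δ/D329A (SD 0.159, n = 4), with an adjusted p of 0.0355 in the limma fit. Of the 18 promoters that lost the mark, 12 had a testable transcript, 0 were called with limma (smallest adjusted p = 0.255; 3 at an unadjusted p under 0.05), and 11 of the 12 differences were below 0, as were 45% over all promoters tested. Bdnf RNA ranged from 1.17 to 2.47 RPKM in +/+ and from 0.963 to 1.62 RPKM in Δ/D329A, which overlap (adjusted p = 0.427, limma).

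Read from the transcripts, 15 of the 19 genes called in RNA had a promoter tested for H3K4me3. Of the 11 of these that were higher in RNA, 5 had more H3K4me3 with the deposited RPM, Hoxa4, Hoxa6, Hoxa7, Lhx4 and Pou4f1, where 0.304% of all promoters were called higher. All 5 had entered the RNA fit only through Δ/D329A, so the count is a description. Hoxa6 had a +/+ mean below 1 RPM and entered only through Δ/D329A, which fixed its direction, and it was not called with TMM (adjusted p = 0.303, limma). Lhx4, a LIM-homeobox factor of motor neurons and pituitary, held 4.05, 3.16 and 2.59 RPM against 5.24, 5.76 and 7.00 RPM (adjusted p = 0.0371, limma; 0.111 with TMM). Of the 4 lower in RNA, 2 had less H3K4me3, Nr2e1 and Rln1, where 1.3% of all promoters were called lower. Rln1, relaxin, held 5.79, 5.69 and 7.46 RPM against 2.67, 4.22 and 3.32 RPM (adjusted p = 0.0274, limma; 0.0668 with TMM). Nr2e1 held 15.34, 8.28 and 11.20 RPM against 3.86, 9.27 and 7.33 RPM, which overlap (adjusted p = 0.0198, limma; 0.314 with TMM). The Gabra2 promoter, whose RNA was lower, held 31.87, 27.47 and 34.72 RPM against 23.33, 37.63 and 30.95 RPM and was not called.

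Gene lists were read with the deposited RPM, beside a median of -0.09 over all promoters tested. The minimum of 1 RPM was on the mean of all 6 libraries, so that a promoter low in 1 genotype passed only through the other, and the counts are descriptions. Over all promoters tested 0.304% were called higher and 1.3% lower, and over the 1657 with at least 2 RPM of H3K27me3 in +/+ the shares were 2.11% and 9.6%. Of 39 Hox genes, 7 had at least 1 RPM and 6 of these were called higher. Of the 6, 3 were below 1 RPM in +/+ and passed only through Δ/D329A, which fixed their direction. They were Hoxa3 (0.60, 0.43 and 0.20 RPM against 2.38, 0.99 and 2.48 RPM), Hoxa6 (0.54, 1.10 and 1.05 RPM against 3.86, 1.38 and 3.52 RPM) and Hoxd8 (0.79, 0.57 and 0.49 RPM against 2.1, 1.54 and 2.42 RPM). With TMM, Hoxa4 and Hoxa7 were among the 3 called. Among 50 tested developmental transcription factors of other families, 8 rose and 3 fell, with a median of 0.09. With TMM 2 of them were called, Gata6 and, lower, Pou3f3 (-0.51, adjusted p = 0.0053, limma). Pou4f3 rose from 1.36, 0.93 and 0.76 RPM to 1.66, 4.38 and 4.0 RPM, while Barhl1 fell from 1.87, 6.35 and 2.82 RPM to 1.13, 0.71 and 0.19 RPM. For Barhl1, replicate 2 of +/+ stood well above the other libraries, as it did for Lmx1b (6.29, 17.33 and 5.58 RPM against 4.17, 1.34 and 0.68 RPM), and under TMM the adjusted p were 0.251 and 0.285 with limma.

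Hypothalamic peptides and genes of feeding were read next. Of 17 tested neuropeptide promoters, 5 were called lower and none higher, with a median of -0.48, beside 1.3% lower over all promoters. All 5 were among the 13 with at least 2 RPM of H3K27me3 in +/+, where 9.6% of promoters were called lower, and 0 were called with TMM or edgeR (7 at an unadjusted p under 0.05 on the deposited RPM). The summed level of the list was 63.0, 60.5 and 67.7 RPM in +/+ and 41.6, 43.7 and 45.8 RPM in Δ/D329A, which do not overlap. Cartpt, an appetite-suppressing peptide, held 4.36, 3.86 and 3.45 RPM in +/+ and 1.57, 1.4 and 0.97 RPM in Δ/D329A. Npy, an appetite-stimulating peptide, held 6.29, 6.88 and 5.75 RPM against 1.10, 3.90 and 2.36 RPM. Both were separate between the genotypes, but neither passed under TMM, with adjusted p of 0.0941 and 0.0928 in limma. Grp and Nmu were the next, at -1.17 and -1.60. Of 17 tested receptors and regulators of appetite, 2 fell, Bdnf and Lepr, the leptin receptor, which held 4.87, 4.99 and 5.68 RPM against 2.48, 3.12 and 1.48 RPM (adjusted p = 0.182 with TMM, limma), and the median was -0.24. A pair of lists held genes that the study names for changed RNA in these mice. They were chosen with the RNA libraries of this series in view and so are no independent evidence of direction. The study used DESeq. In the limma fit given above, 9 of 11 tested genes named as higher were called higher. Of 10 named as lower, 4 were called lower, and Bdnf was not. Of 10 tested genes with higher RNA, 4 rose in H3K4me3 (Pou4f1, Hoxa7, Hoxd8, Lhx4), with a median of 0.64. Of 10 with lower RNA, 4 fell (Bdnf, Cartpt, Nr2e1, Rln1), with a median of -0.32. With TMM and with edgeR, the only calls were Hoxa7 and Pou4f1 among those with higher RNA and Bdnf among those with lower RNA.

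Markers of other cells were read in the same way, beside 1.3% lower over all promoters. Of 11 oligodendrocyte promoters, 2 were called lower (Mobp, from 5.63, 9.01 and 8.08 RPM to 1.66, 7.42 and 3.0 RPM, and Ermn), with a median of -0.46 and 0 calls with TMM or edgeR. At an unadjusted p under 0.05 there were 7 of the 11, and 1 of the 11 lay above the median of all promoters. Their summed level was 117, 139 and 136 RPM in +/+ and 74.1, 129 and 107 RPM in Δ/D329A, which overlap. Of 8 promoters of cortical projection neurons, 3 were called lower, Neurod6, Neurod2 and Fezf2, with a median of -0.44 and 0 calls with TMM or edgeR. All 3 were among the 6 with at least 2 RPM of H3K27me3 in +/+, where 9.6% of promoters were called lower. Neurod6, a factor of cortical and hippocampal neurons, showed the largest fall among called promoters whose genotypes did not overlap, from 7.68, 5.69 and 1.81 RPM to 0.72, 0.16 and 0.32 RPM (log2 difference -3.30, SE 0.36). It entered only through +/+, as did Neurod2, and was not called with TMM (adjusted p = 0.0928, limma). The summed level of the cortical list was 93.0, 78.9 and 80.8 RPM in +/+ and 47.5, 85.7 and 70.3 RPM in Δ/D329A, which overlap, and the part of these cells in the falls was not tested. The summed level of the 5 oligodendrocyte precursor promoters did not overlap, with 18.9, 17.9 and 18.2 RPM in +/+ and 12.98, 13.37 and 13.81 RPM in Δ/D329A (median log2 difference -0.41), and its part was not tested either. With limma on the deposited RPM, 0 promoters were called among the tested markers of astrocytes (9), microglia (7), endothelium (9), oligodendrocyte precursors (5), ependyma and choroid plexus (4), thalamus and habenula (8) and striatum (8), nor among pan-neuronal genes (10). At an unadjusted p under 0.05 there were 0, 0, 2, 2, 1, 1, 1 and 1 in this order. With TMM and with edgeR the only call among them was Enpp2, a choroid plexus gene, which held 23.18, 22.65 and 23.91 RPM in +/+ and 10.25, 20.31 and 14.94 RPM in Δ/D329A. The pan-neuronal gene Syt1 held 27.10, 25.61 and 29.82 RPM against 19.41, 31.32 and 28.14 RPM, which overlap. None of the 10 anterior pituitary markers reached 1 RPM, and their summed level was at most 3.89 RPM in any library.

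With limma on the deposited RPM, 0 were called among 9 tested genes of H3K4 methyltransferase complexes, 9 of H3K4 demethylases, 5 of DNA methylation enzymes, 18 of Polycomb components, 19 housekeeping, 19 imprinted and 19 immediate early genes, and 0 had an unadjusted p under 0.05. Their medians lay between -0.14 for imprinted genes and -0.0033 for DNA methylation enzymes. With TMM and with edgeR, 1 of them was called, the Polycomb gene Cbx8, at 0.32 on the log2 scale with TMM (adjusted p = 0.0262, limma), which was singled out after its values were seen. Setd1b, which encodes an H3K4 methyltransferase, held 39.40, 35.78 and 42.63 RPM in +/+ and 30.48, 43.07 and 40.60 RPM in Δ/D329A. Of 3 tested germline and 8 melanocyte genes, 0 were called with limma (1 each at an unadjusted p under 0.05; 0 with TMM or edgeR). The Dnmt3a promoter held 9.99, 10.54 and 11.43 RPM in +/+ and 8.87, 11.04 and 12.13 RPM in Δ/D329A, and its RNA had a mean of 3.78 RPKM in +/+ and 3.11 RPKM in Δ/D329A (adjusted p = 0.355, limma). Tiles of 2 kb do not resolve the deleted exon, so that these values do not check the genotype.

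The distribution of the mark over the genome was read from all 2462755 autosomal tiles. Promoter tiles held 28.1%, 26.8% and 29.8% of the H3K4me3 signal in +/+ and 20.4%, 31.1% and 30.2% in Δ/D329A. Intergenic tiles held 21.5%, 23.2% and 18.9% in +/+ and 31.3%, 17.6% and 19% in Δ/D329A. Replicate 1 of Δ/D329A was lowest at promoters and highest between genes, and the other libraries lay together. The exact permutation test gave p = 1.0 for promoters, 0.8 for gene bodies and 0.9 between genes, where 3 against 3 libraries cannot give less than 0.1. Without that replicate the promoter difference turned from -0.96 to 2.45 percentage points. Mitochondrial coverage divided the libraries into 2 sets, replicates 1 and 2 of +/+ with replicate 1 of Δ/D329A, and replicate 3 of +/+ with replicates 2 and 3 of Δ/D329A. In the fit with TMM and a term for these sets, 17 of the 19 regions called higher under all 5 scalings and 23 of the 28 called lower were called.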

How the data were processed

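Native ChIP-seq and RNA-seq of the hypothalamus were read from the deposited tables. The submitters' processing notes list Trim Galore (0.4.3), Bowtie2 (2.3.2) and HISAT2 (2.0.5), and the study's methods name Bowtie and other versions, so which made the tables is not settled. For ChIP, the authors deposited a signal per 2 kb tile (1 kb step) of GRCm38, reads scaled to uniquely mapped reads (RPM). For RNA, the deposited values are log2 RPKM. Every deposited signal was a whole number of reads within 0.01 read, with 12676361 to 15944966 mapped reads per H3K4me3 library. All columns of the tables used were matched to samples.

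Promoters (1500 bp before to 500 bp after the start) and regions were the mean of their autosomal tiles, and tiles were promoter, else gene body, else intergenic. Promoters and tiles entered at a mean of 1 RPM, other marks at 0.5 RPM, RNA at 0.1 RPKM in 4 libraries. limma (3.58.1, trend, R 4.3.3) tested log2(RPM + 0.1) and log2 RPKM with Benjamini-Hochberg adjustment, and fold changes of low values are understated on this scale. edgeR (4.0.16) tested the recovered reads with TMM factors. A fold of means is named as such. Shares by class were tested by a two-sided exact permutation test. The scripts were tested on simulated data. Python 3.11.15, numpy 2.4.6, pandas 2.3.3 and matplotlib 3.10.9 were used.

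Named were the 10 largest called rises and falls with no overlap, the 5 largest called region rises and falls in gene bodies and between genes, Dnmt3a, the genes known for changed RNA, and from each other list up to 4 called members or else the 2 with the highest level. Those called under all 5 scalings were added later, and Enpp2, Cbx8 and Rmst were named after their values were seen. Some genes that the rule names are not reported here, though counts include them. Members and lists were chosen with earlier results of these data known. Alternatives were other pseudocounts, minimums, windows, scalings, an input ratio, blocks and leaving out each library.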

Additional observations from a re-analysis of the deposited data

Results flagged for a closer look

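Replicates of the RNA-seq groups, 52 in number for the genes named above, were screened for 1 value far from the others, which chance gives in about 1 in 20 groups, and 4 stood out. Car3 RNA was 0.200 RPKM in replicate 3 of Δ/D329A, against 0.0453 to 0.0631 RPKM in the others. Cdk5rap1 RNA was 2.3 RPKM in replicate 1 of +/+, against 1.22 to 1.45 RPKM. In the same replicate Slc9a3 RNA was 0.306 RPKM, against 0.0600 to 0.128 RPKM. Wt1 RNA was 0.0208 RPKM in replicate 4 of +/+, against 0.00790 to 0.0109 RPKM. Those 4 lower values were at the level listed for a gene with no read, and replicate 4 was 2.22 times that level, so that this difference rests on very few reads. The ChIP groups of 3 libraries are too small for this screen.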

How the results depend on the processing

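The calls depended on scaling. Tiles, promoters and regions gave 163, 45 and 80 calls with TMM, 143, 50 and 82 with quantile normalization, 158, 54 and 92 with background subtraction, 161, 51 and 61 with edgeR, 421, 135 and 331 with the input ratio, and 105, 29 and 47 under all 5 scalings. A term for the 2 sets of libraries by mitochondrial coverage gave 1920, 523 and 1391, and with TMM 117, 46 and 59. Array weights gave 5704 promoters and 9080 regions, but did not converge. With no minimum on promoters there were 0 calls (limma; 825 at an unadjusted p under 0.05), and with regions built from tiles of at least 4 RPM there were 225. H3K27me3 gave 4 calls with no minimum, H3K36me3 1 with no minimum and 1 with a pseudocount of 0.5, input 5 with no minimum, and RNA 11 with a minimum of 0.5 RPKM. Leaving out 1 library gave 490 to 5606 tiles, 112 to 585 promoters, 213 to 1206 regions, 69 to 465 promoters for H3K27me3, 0 to 7 for H3K36me3, 0 to 2 for input and 11 to 18 RNA calls. Without replicate 1 of Δ/D329A there were 490 tiles, 314 promoters and 423 regions, with TMM 218, 66 and 96, and with edgeR 143, 51 and 28.

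Leaving out 1 library moved the share at promoters from -2.90 to 2.45 percentage points, in gene bodies from -1.03 to 0.457 and between genes from -2.91 to 3.93. Without replicate 1 of Δ/D329A these turned to 2.45, 0.457 and -2.91. Dnmt3a, near 0 in the deposited RPM, turned to 0.08 with TMM, 0.10 with quantile normalization, 0.08 with background subtraction, 0.09 with edgeR, 0.24 with array weights, 0.05 without replicate 3 of +/+, 0.12 without replicate 1 of Δ/D329A (0.05 with TMM, 0.06 with edgeR) and 0.09 with TMM and the set term. The Tal1 promoter turned to 0.15 with quantile normalization, 0.10 with edgeR, 0.03 with the set term, 0.07 with the input ratio, 0.20 without replicate 3 of Δ/D329A and 0.20 with TMM and the set term. Leaving out 1 library gave -0.10 to 0.12 for Dnmt3a and -0.28 to 0.20 for the Tal1 promoter. The causes were not tested. Of 57 called named promoters, 29 were called with TMM and 54 without replicate 1 of Δ/D329A, and of 59 named regions 49 and 59. None of these changed sign.

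With the replicate number as a block, tiles gave 2752 calls, promoters 266 and regions 594. Whether the numbers pair animals across genotypes is not stated. Deviations of same-numbered libraries correlated at 0.226, 0.0159 and 0.193, and those of differently numbered libraries at -0.382 to 0.212. With so few pairs these values cannot decide it. Alternatives with a mitochondrial set term, all 5 scalings and TMM without a library were chosen after seeing the data. Depth limits low features, and the Wt1 region in +/+ rests on 1 to 4 reads per tile.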
